A study of Bos taurus with 8 samples.

Results

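The plasminogen activator genes described here are PLAT, PLAU, PLAUR, SERPINE2, ANXA2 and S100A10, 6 of the 28709 genes in the deposited table. They were picked by symbol because PLAT was higher after progesterone, so the difference between the treatments at these genes is given as a description, with no test. All 6 were found once each in the table, all 6 passed the filter on low counts, and they lie on 6 different chromosomes. The cells were BUTE, an immortalized uterine epithelial line derived from a Holstein cow and labelled wild type. All cells were first kept for 24 h in medium free of serum and steroids with insulin-like growth factor 1 (IGF1). The 4 control samples then received the vehicle DMSO, and the 4 treated samples received 10 µM progesterone, for 24 h, all with 50 ng/ml IGF1. Poly(A) RNA was sequenced from each sample. A single line from a single animal was used, and the labels do not say whether they were separate cultures, so the spread between libraries may be technical.

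Plasminogen is an inactive precursor that becomes plasmin, a protease that dissolves fibrin, degrades matrix proteins and activates other proteases. Tissue plasminogen activator (PLAT) and urokinase (PLAU) make that cut; urokinase works mostly when held at the cell surface by its receptor PLAUR, and tissue plasminogen activator works best on fibrin or on surface docking proteins. One such docking site is a complex of annexin A2 (ANXA2) and its partner S100A10, whose terminal lysine binds plasminogen. Serpins such as SERPINE2 block the activators by forming complexes with them, which LRP1 then removes. In the uterus this system is known for its part in tissue remodelling.

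The libraries held 23810861 to 32509786 estimated counts. DMSO R7 and R9 (libraries are called by the numbers in the table's column names) stood apart: their log2 expression correlated with each other at 0.992 across genes, with the other 6 libraries at 0.949 to 0.962, and the other 6 correlated among themselves at 0.983 to 0.992. Fitted differences of the 6 genes, and of the pathway genes named, are therefore given with all 8 libraries and again without these 2. The epithelial label was met in part by its markers. KRT8 was abundant (1348 to 2789 CPM, reads of the gene scaled to a common library total, over the 8 libraries). KRT19 was at 255 to 706 CPM, KRT7 at 5.70 to 35.3 CPM and CDH1 at 10.5 to 22.7 CPM. KRT18 was at only 0.948 to 6.92 CPM and EPCAM at 0.275 to 2.53 CPM. CLDN4 and GRHL2 stayed under 1 CPM in every library. In DMSO R7 and R9, KRT8, KRT18 and EPCAM were above DMSO R1 and R3, while KRT7, KRT19 and CDH1 were below them. Markers of stromal fibroblasts were high, with a summed level of 6999.9 to 13753 CPM with DMSO and 5521 to 6339 CPM with progesterone for 8 genes, and R7 and R9 held the highest sums (13753 and 12800.5 CPM). The collagens COL1A1 and COL1A2 made up most of these sums, and not every stromal marker was high in R7 and R9: DCN was at 268 and 281 CPM there against 962 and 770 CPM in DMSO R1 and R3, and PDGFRB at 2.21 and 3.97 CPM against 8.16 and 6.06 CPM. Of 8 endothelial markers, 6 stayed under 1 CPM in every library. The sum of all 8 was 3.22 to 6.78 CPM, of which VWF alone was at 1.59 to 5.50 CPM. The leukocyte marker PTPRC had no count in any library. Smooth muscle markers summed to 904 to 1114 CPM with DMSO and 865 to 1099 CPM with progesterone for 5 genes. Of these, ACTA2 was at 542 to 771 CPM and MYH11 stayed under 1 CPM. The part of all these markers in the results below was not tested.

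PLAT, the tissue-type activator (Entrez Gene 281407, chromosome 27), was the member that differed most between the treatments. With DMSO it was at 265.9 CPM in R1, 275 CPM in R3, 318 CPM in R7 and 322 CPM in R9. With progesterone it was at 659 CPM in R1, 565.6 CPM in R2, 968 CPM in R3 and 710.4 CPM in R6. All 4 progesterone libraries lay above all 4 DMSO libraries, and the highest of them, R3, held the largest part of the spread within the treated group. The group means were 295 ± 29.0 CPM and 726 ± 172 CPM (SD, n = 4 each), a 2.46-fold difference with a 95% interval of 1.93 to 3.13. Of the 13557 genes tested, 0.553% had a higher log2 fold change. In bulk RNA, more cells expressing the gene and more RNA per cell cannot be told apart. The log2 fold change was 1.30 ± 0.16 (SE) with all libraries and 1.44 ± 0.19 without DMSO R7 and R9, which were slightly above R1 and R3 for this gene (1.18-fold).

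**Figure D1:**
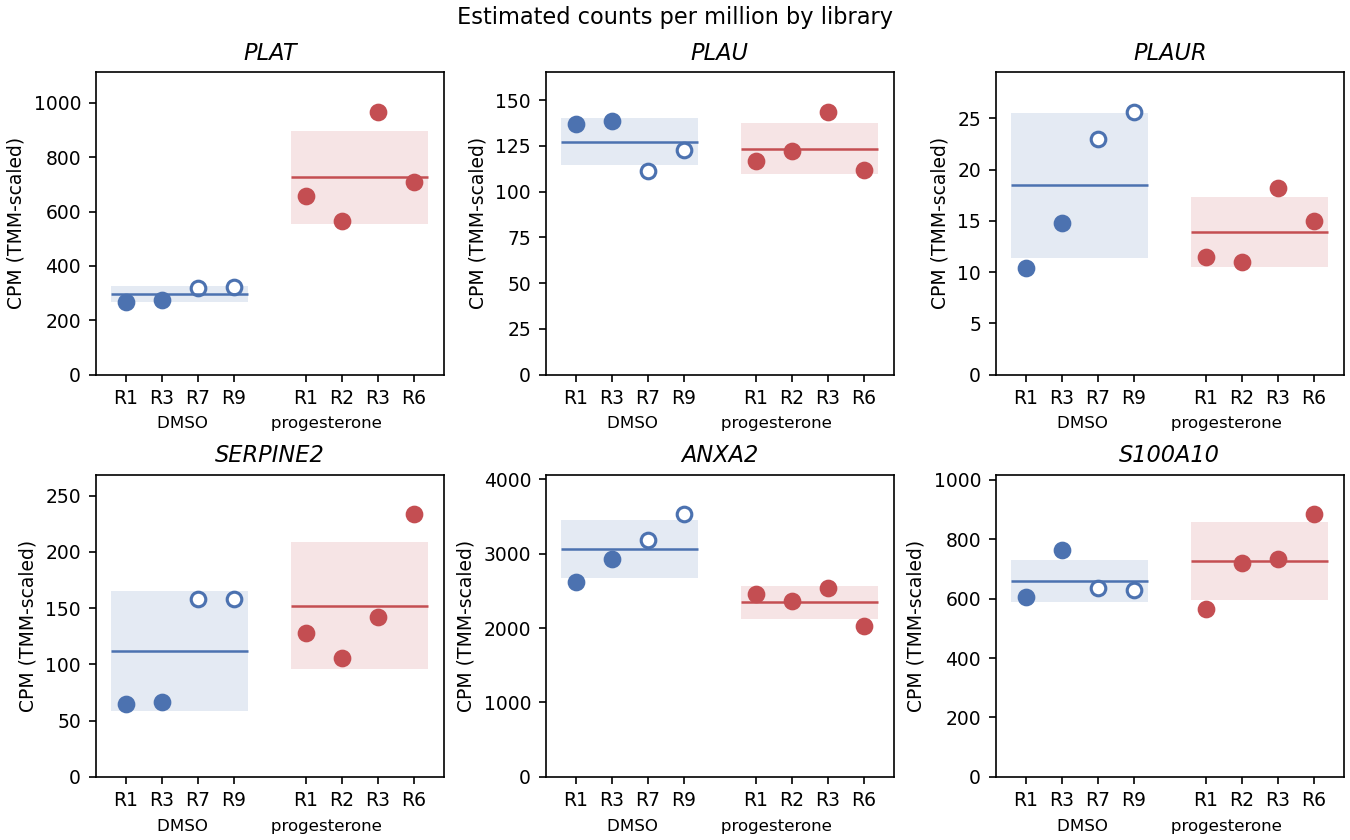
CPM (TMM-scaled, linear axis from 0) of the 6 genes in each of the 8 libraries. Points are libraries, blue for DMSO and red for progesterone, with open points for DMSO R7 and R9; lines and bands are the mean ± SD of each group (n = 4). PLAT lay between 265.9 and 322 CPM with DMSO and between 565.6 and 968 CPM with progesterone, while for SERPINE2 and PLAUR the open points lie above the filled DMSO points.

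PLAU, the urokinase-type activator (281408, chromosome 28), was at like levels in the 2 groups. It was at 137 CPM in DMSO R1, 138 CPM in R3, 111 CPM in R7 and 123 CPM in R9, and at 117 CPM in progesterone R1, 122 CPM in R2, 144 CPM in R3 and 112 CPM in R6. The groups overlapped over nearly their whole range, and the highest library was 1.29 times the lowest. The log2 fold change was -0.04 ± 0.11 (SE), with a 95% interval of -0.28 to 0.19, so in this fit a change as large as that of PLAT lay outside the interval. Without DMSO R7 and R9 it was -0.14 ± 0.10.

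PLAUR, which encodes the surface receptor for urokinase (281983, chromosome 18), had the fewest counts of the 6 genes, 276 to 678 per library. It was at 10.4 CPM in DMSO R1, 14.8 CPM in R3, 23.0 CPM in R7 and 25.6 CPM in R9, and at 11.5 CPM in progesterone R1, 10.9 CPM in R2, 18.2 CPM in R3 and 15.01 CPM in R6. R7 and R9 were the 2 highest libraries, 1.93 times the mean of R1 and R3, and all 4 progesterone libraries lay below them. The sign of the difference depended on these 2 libraries: the log2 fold change was -0.41 ± 0.28 (SE) with all libraries and 0.16 ± 0.22 without them.

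SERPINE2 (282521, chromosome 2), also called protease nexin 1, is an inhibitor of urokinase, tissue plasminogen activator and thrombin. Its level was 64.5 CPM in DMSO R1, 66.1 CPM in R3 and 158 CPM in both R7 and R9. With progesterone it was 128 CPM in R1, 105 CPM in R2, 142 CPM in R3 and 234 CPM in R6. All 4 progesterone libraries were above DMSO R1 and R3, and 3 of the 4 were below R7 and R9. The progesterone mean was 2.33 times the mean of R1 and R3 and 0.965 times the mean of R7 and R9. The log2 fold change was accordingly 0.45 ± 0.38 (SE, 95% interval -0.42 to 1.32) with all libraries and 1.23 ± 0.31 (0.51 to 1.96) without R7 and R9.

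ANXA2 (282689, chromosome 10) encodes the calcium-dependent membrane-binding part of the docking complex. It was at 2617 CPM in DMSO R1, 2928 CPM in R3, 3182 CPM in R7 and 3535 CPM in R9. With progesterone it was at 2464 CPM in R1, 2364 CPM in R2, 2534 CPM in R3 and 2034 CPM in R6. Every progesterone library lay below every DMSO library, although progesterone R3 and DMSO R1 were close. The means were 3066 ± 389 and 2349 ± 221 CPM (SD, n = 4 each) and the log2 fold change was -0.38 ± 0.12 (SE), with an interval of -0.65 to -0.12. Without R7 and R9, the 2 highest libraries, it was -0.23 ± 0.11, with an interval of -0.48 to 0.03 that reached 0.

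S100A10, or p11 (282466, chromosome 3), the small EF-hand protein that pairs with annexin A2, did not separate the treatments. It was at 607 CPM in DMSO R1, 764 CPM in R3, 635.5 CPM in R7 and 628 CPM in R9, and at 564.5 CPM in progesterone R1, 721 CPM in R2, 733 CPM in R3 and 885 CPM in R6. Progesterone held both the lowest library, R1, and the highest, R6. The log2 fold change was 0.14 ± 0.14 (SE, interval -0.17 to 0.44), and 0.10 ± 0.17 without DMSO R7 and R9.

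**Figure D2:**
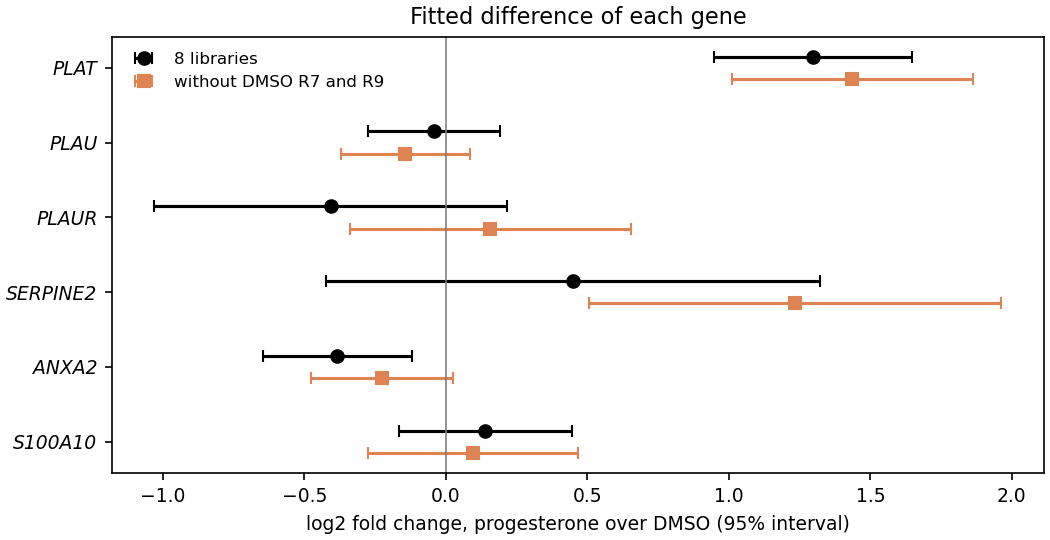
Log2 fold change of progesterone over DMSO for each gene, with 95% intervals from edgeR's quasi-likelihood fit over all genes. Black circles use 8 libraries and orange squares leave out DMSO R7 and R9. PLAT keeps a difference of 1.30 and 1.44, while SERPINE2 moves from 0.45 to 1.23 and PLAUR from -0.41 to 0.16.

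Across the 6 genes, 1 (PLAT) was past an adjusted p of 0.05 in the edgeR fit, where 2.65% of all genes tested were, and the same 1 was past it without DMSO R7 and R9, where 1.18% of all genes were. The groups did not overlap at 2 of the 6, PLAT higher and ANXA2 lower; this was so at 16.2% of all genes tested. Nothing is read from these counts, since the genes were picked on this comparison. The median log2 fold change of the 6 was 0.05 and that of all genes tested -0.01; without R7 and R9 these were 0.13 and 0.01. The spread within a group differed between the members. With DMSO the SD was 9.83% of the mean for PLAT, 10.2% for PLAU, 10.8% for S100A10 and 12.7% for ANXA2, against 38.4% for PLAUR and 47.8% for SERPINE2, the 2 members in which R7 and R9 exceeded R1 and R3 the most, 1.93-fold and 2.41-fold.

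Ratios within a library do not depend on how libraries are scaled, and here are read only from library to library, because no transcript lengths were at hand to compare levels between genes. The ratio of PLAT to PLAU estimated counts was 1.94 to 2.86 in the DMSO libraries and 4.63 to 6.74 in the progesterone libraries, 2.49-fold higher between the geometric means and 2.95-fold higher without R7 and R9. PLAT was thus higher against PLAU in each of the 4 progesterone libraries than in any DMSO library. Against SERPINE2 the groups overlapped: the ratio was 4.12 and 4.16 in DMSO R1 and R3, 2.02 and 2.04 in R7 and R9, and 3.04 to 6.82 with progesterone, lowest in R6. It was 1.69-fold higher with progesterone, and 1.18-fold without R7 and R9. The ratio of ANXA2 to S100A10 was 3.83 to 5.62 with DMSO and 2.30 to 4.37 with progesterone, and these ranges overlapped. Its geometric mean with progesterone was 0.703 times that with DMSO, and 0.803 times without R7 and R9.

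**Figure D3:**
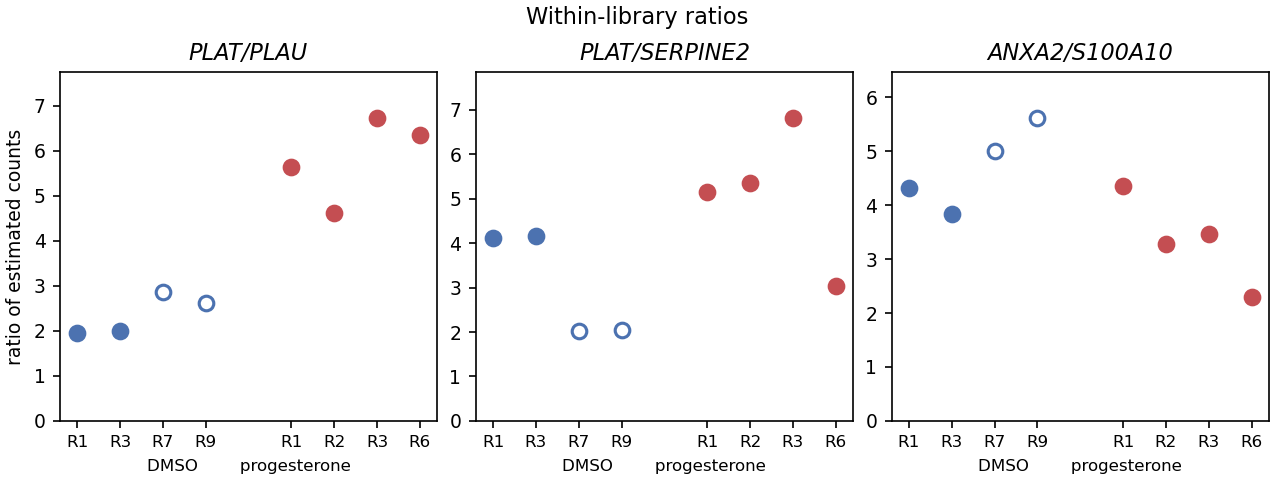
Ratio of estimated counts of the named pair of genes in each library (linear axes from 0; blue DMSO, red progesterone, open points DMSO R7 and R9). The PLAT to PLAU ratio spans 1.94 to 2.86 with DMSO and 4.63 to 6.74 with progesterone; the PLAT to SERPINE2 ratio overlaps between the groups.

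The genes whose pattern over the 8 libraries was most like that of PLAT were sought among 9706 genes with a mean of at least 10 CPM. Likeness was the root-mean-square difference between log2 CPM values centred on each gene's mean. The nearest was TSC22D3, the glucocorticoid-induced leucine zipper, at 0.17, followed by the glutathione peroxidase GPX1 at 0.24, the galactosyltransferase B4GALT5 at 0.25, the phosphatidate phosphatase LPIN1 at 0.26 and the hypoxia-inducible factor EPAS1 at 0.26. The median over all genes compared was 0.69. TSC22D3 was at 29.8 to 30.7 CPM in the DMSO libraries and 60.1 to 74.0 CPM in the progesterone libraries. The other members were farther from PLAT: SERPINE2 was at 0.60, S100A10 at 0.63, PLAU at 0.70, ANXA2 at 0.85 and PLAUR at 0.86. The genes next to PLAT on chromosome 27 did not share its pattern. The 4 nearest genes tested were KAT6A and AP3M2 on one side and IKBKB and POLB on the other. They were looked up after the values of PLAT were known. None passed in edgeR and none lay under 0.05 before adjustment. Their log2 fold changes were 0.05, -0.19, 0.01 and 0.11. AP3M2 was lower without overlap, at 16.5 to 18.9 CPM with progesterone and 19.6 to 20.5 CPM with DMSO, as were 8.22% of all genes tested.

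**Figure D4:**
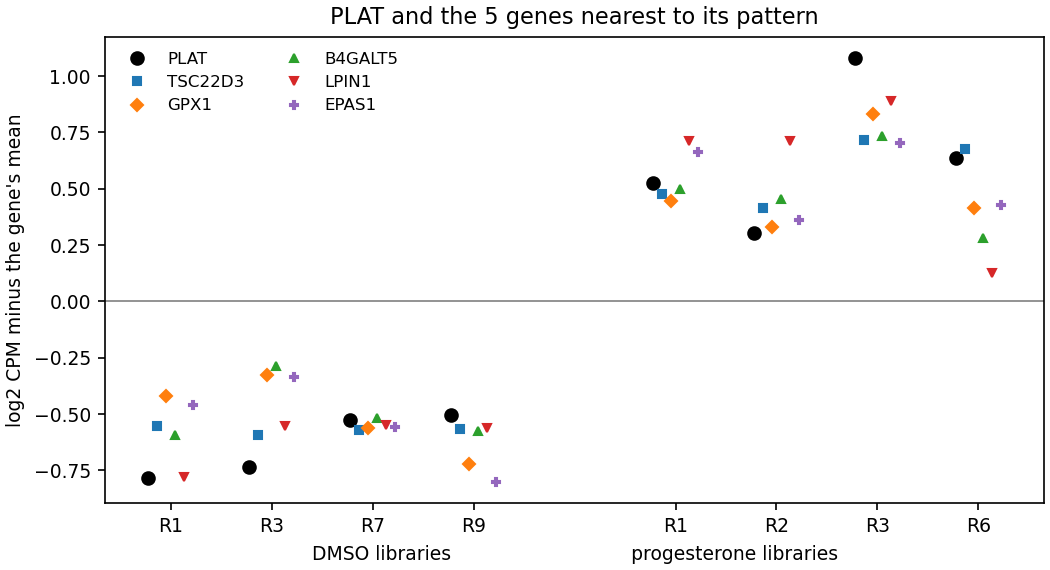
Log2 CPM minus each gene's own mean over the 8 libraries, for PLAT (black circles) and the 5 genes with the smallest root-mean-square difference from it (0.17 to 0.26). Points of a library are set side by side. All 6 genes lie below 0 in the DMSO libraries and above 0 in the progesterone libraries. For the 5 this comes with their choice by likeness to PLAT.

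Other genes of the plasminogen pathway, with the relatives of ANXA2 and S100A10, were grouped into 11 lists with 106 rows of the table. Of these rows, 70 passed the filter and were tested. Among them, 8 other annexins and 10 other S100 genes were listed by family, not for a role in the pathway. Of the 70, 2 rose and none fell in edgeR (adjusted over all genes), or 2.86%. Of all genes 1.69% rose and 0.959% fell. Before adjustment 26 of the 70 lay under 0.05, a larger share than the 26.8% of all genes. The unadjusted counts of the single lists below stand beside that 26.8%. DESeq2 called 18 of the 70, a larger share than its 13.5% of all genes. Limma voom called 1 of the 70, where it called 2.04% of all genes. At 12 of the 70 the groups did not overlap and progesterone was higher, a larger share than the 7.95% of all genes. At 5 of the 70 they did not overlap and progesterone was lower, beside 8.22% of all genes. Without DMSO R7 and R9, 0 of 69 passed in edgeR, where 1.18% of all genes did. Before adjustment 16 of the 69 lay under 0.05, a larger share than the 15.9% of all genes. These shares were not tested against those of all genes. The median log2 fold change of the 70 was 0.06, and 0.11 without these 2 libraries.

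For the genes named next, a pair of values in brackets after the CPM is the log2 fold change with all libraries and then without DMSO R7 and R9. The precursor itself was scarcely measured: PLG, plasminogen, had 1 estimated count in all 8 libraries together. Of its other surface receptors, none of 4 passed in edgeR (3 lay under 0.05 before adjustment, with 3 calls by DESeq2 and 0 by voom). KRT8, a keratin that can bind plasminogen at the surface, was at 2481 ± 236 CPM in the vehicle group and 1740 ± 338 CPM in the treated group (SD, n = 4 each) and did not overlap between the groups (-0.51 and -0.39). PLGRKT, a plasminogen receptor with a terminal lysine, lay on the other side without overlap, at 18.9 ± 2.55 and 27.1 ± 4.99 CPM (0.52 and 0.37). The glycolytic enzyme ENO1, which also docks plasminogen, was at 1522 ± 250 and 1643 ± 293 CPM (0.11 and -0.03).

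Among other inhibitors of the activators, 2 were tested and neither passed in edgeR (1 lay under 0.05 before adjustment, with 0 calls by DESeq2 and 0 by voom). SERPINI1 (neuroserpin, an inhibitor of PLAT) was at 8.85 ± 1.12 CPM in the vehicle group and 6.57 ± 1.63 CPM in the treated group (-0.43 and -0.36). SERPINB2, another inhibitor of urokinase, had 4 counts in all libraries together. The inhibitors of plasmin SERPINF2 and A2M were below the filter. Of the inhibitors tested in that list, SERPINB6 was at 161 ± 3.01 and 180.2 ± 13.4 CPM (0.16 and 0.15) and SERPING1 (the C1 inhibitor) at 14.8 ± 1.84 and 19.3 ± 1.00 CPM (0.38 and 0.29); neither passed in edgeR (1 lay under 0.05 before adjustment, with 1 calls by DESeq2 and 0 by voom).

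Of the genes that clear activator complexes, none of 8 passed in edgeR (2 lay under 0.05 before adjustment, with 1 calls by DESeq2 and 0 by voom), with a median log2 fold change of 0.16 with and without R7 and R9. The clearance receptor LRP1 averaged 873 ± 135 and 968 ± 133 CPM in the same order (0.15 and 0.07). None of 8 partners of the urokinase receptor passed in edgeR (2 lay under 0.05 before adjustment, with 2 calls by DESeq2 and 0 by voom), and the integrin chain ITGB1 was at 1665 ± 103 and 1592 ± 66.6 CPM (-0.06 and 0.01). None of 6 partners of the annexin A2 complex passed in edgeR (4 lay under 0.05 before adjustment, with 3 calls by DESeq2 and 0 by voom). The giant scaffold AHNAK, a ligand of that complex, was at 3856 ± 246 and 4342 ± 333 CPM (0.17 and 0.23). DLC1 was lower without overlap, at 240 ± 61.8 and 151 ± 5.51 CPM (-0.67 and -0.31). CTSB was higher without overlap, at 591 ± 68.5 and 797 ± 106 CPM (0.43 and 0.32).

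Of the 2 genes that rose, SPINT2 was listed as a protease inhibitor and ANXA4 only as a relative of ANXA2. SPINT2, a membrane-bound inhibitor of surface serine proteases, was at 43.9, 40.2, 33.3 and 31.8 CPM in DMSO R1, R3, R7 and R9 and at 57.9, 53.9, 49.2 and 60.5 CPM in progesterone R1, R2, R3 and R6. It rose 1.48-fold, by 0.57 ± 0.12 (SE) on the log2 scale, with an edgeR adjusted p of 0.0417. Leaving out DMSO R7 and R9 gave 0.41 with an edgeR adjusted p of 0.0987, so the call was lost. ANXA4, an annexin of epithelial membranes, averaged 124 ± 15.6 CPM in the controls and 171 ± 15.7 CPM after treatment. It rose 1.38-fold, by 0.47 ± 0.11 (SE) on the log2 scale, with an edgeR adjusted p of 0.0494, and that call was lost too without these libraries (0.37, edgeR adjusted p of 0.150). In both genes all 4 progesterone libraries were above all 4 DMSO libraries. The other 7 annexins tested did not pass in edgeR, and ANXA1 was at 595 ± 42.5 and 565 ± 34.8 CPM (-0.08 and -0.12). Over all 8 annexins, ANXA4 included, 3 lay under 0.05 before adjustment, with 3 calls by DESeq2 and 0 by voom. The groups did not overlap at 2 of the 8 with progesterone higher, beside 7.95% of all genes. They did not overlap at 1 with progesterone lower, beside 8.22%.

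None of the 10 S100 genes tested passed in edgeR (3 lay under 0.05 before adjustment, with 0 calls by DESeq2 and 0 by voom), and S100A11 was at 657 ± 58.5 and 665 ± 56.6 CPM (0.02 and 0.06). Of 9 tested proteases and growth factors that feed or follow plasmin none passed in edgeR (1 lay under 0.05 before adjustment, with 0 calls by DESeq2 and 0 by voom). The matrix metalloprotease MMP2 was at 387 ± 49.7 and 451 ± 54.2 CPM (0.22 and 0.09) and its membrane-bound activator MMP14 at 155 ± 16.1 and 138 ± 6.88 CPM (-0.16 and -0.05). Of 10 coagulation genes none passed in edgeR (5 lay under 0.05 before adjustment, with 4 calls by DESeq2 and 0 by voom), and thrombomodulin, THBD, was at 155 ± 29.0 and 211 ± 18.0 CPM (0.45 and 0.27).

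**Figure D5:**
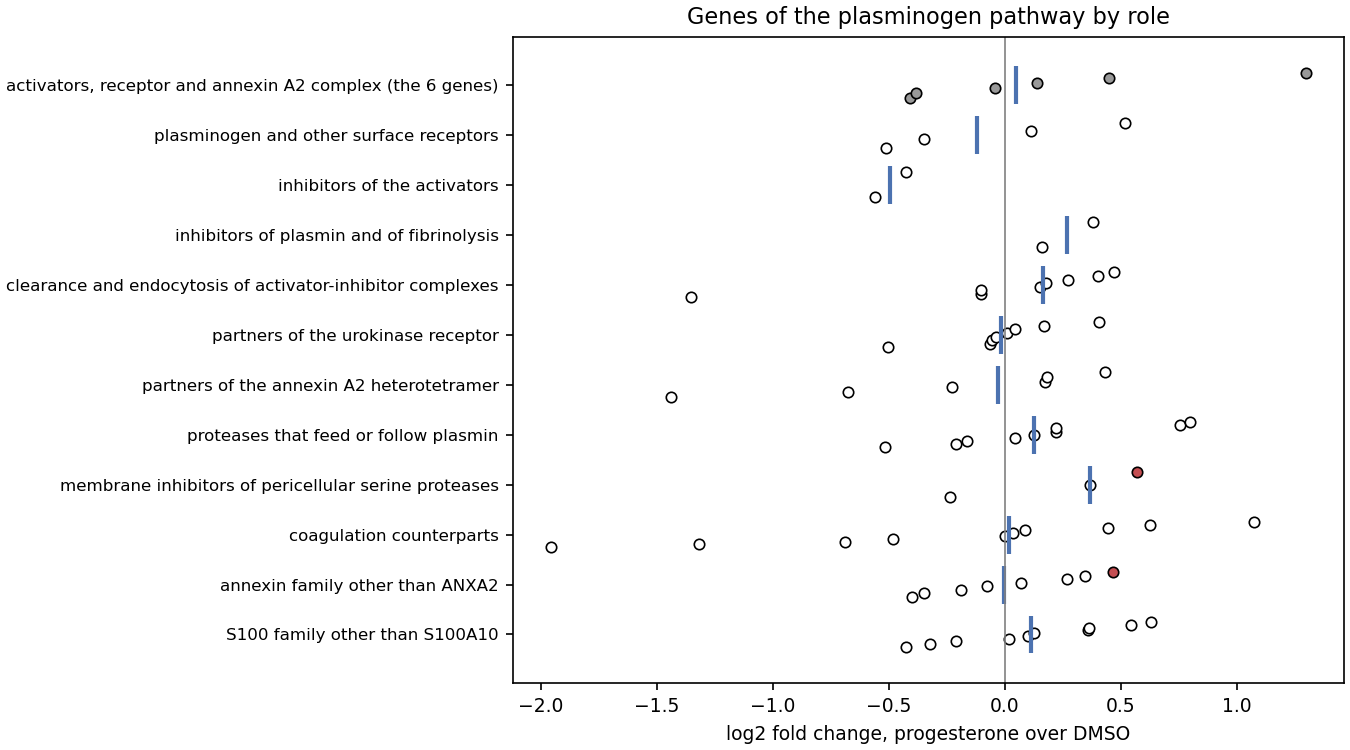
Log2 fold change of progesterone over DMSO (8 libraries) for each tested gene, in rows by role or, for the annexins and S100 genes, by family. Red points passed an edgeR adjusted p of 0.05, white points did not, grey points are the 6 genes chosen on this comparison, and blue bars are row medians; of 70 genes outside the 6, 2 are red.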

How the data were processed

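Poly(A) RNA libraries from 4 DMSO and 4 progesterone samples were analysed. The authors deposited one table of estimated counts per gene, named as length-normalized; the sources used here do not say how. Tools named, with no role, are Salmon 1.4.0 and bcl2fastq, and the genome build is ARS-UCD1.2 (per the submitters' processing notes). Columns give a library's group but not its sample, so libraries entered as replicates of a group.

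The deposited estimated counts were rounded, filtered with edgeR's filterByExpr (13557 genes kept), scaled by TMM and compared by the quasi-likelihood test of edgeR (edgeR 4.0.16, R 4.3.3, robust, two-sided), with Benjamini-Hochberg adjustment over all genes and a threshold of 0.05. The SE is the log2 fold change divided by the square root of F; intervals are 95%. Likeness used log2 CPM with a prior count of 2.

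Replicate libraries were further apart than counting error (chi-square per degree of freedom 14.2 to 129), and none was merged. Totals were 23810861 to 32509786 per library, and the largest counting error of the 6 genes was 6.02% (PLAUR, 276 counts).

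Named were the 6 genes, the 5 most like PLAT, pathway genes past the threshold and up to 3 per list of the highest mean CPM; PLG, PLGRKT, SERPINB2, SERPINF2, A2M, PTPRC, the named markers and the neighbours of PLAT were added after their values were seen, and not every gene allowed is described. The genes and lists were chosen with earlier results of these data known. Alternatives were DESeq2 1.42.0, limma voom (limma 3.58.1), DESeq2's size factors, library size only, no filter, leaving out libraries and a block. Sequences and promoter motifs are not analysed here. A list count can include a gene that is not reported here.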

Additional observations from a re-analysis of the deposited data

How the results depend on the processing

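The log2 fold change of PLAT was positive in all 15 alternatives run; leaving out 1 library at a time gave 1.13 (without progesterone R3) to 1.42. The numbers in the column names pair only R1 and R3, whose deviations from the group means correlated at 0.226 and 0.210 across genes; with the replicate block PLAT was at 1.56, 2531 genes were called and 27 of the pathway lists, from 1 residual degree of freedom. PLAUR changed sign without DMSO R7 and R9 (0.16) and with the block (0.23), S100A10 with the block (-0.08) and PLAU without DMSO R3 or progesterone R6 (0.0015 and 0.0040); SERPINE2 and ANXA2 kept their sign in the 15 but not their size: SERPINE2 was at 0.17 without progesterone R6, 0.26 and 0.27 without DMSO R1 and R3, 0.66 without R7 or without R9, 1.04 with the block and 1.23 without R7 and R9 together, and ANXA2 was at -0.15 with the block and between -0.45 and -0.31 with 1 library left out. Whether ANXA2 and SERPINE2 passed the threshold differed between the alternatives. Nothing is read from this, since the 6 genes were picked on this comparison. The count of genes called was 359 in the reported fit, 1830 with DESeq2, 162 without DMSO R7 and R9, and 42 to 1782 with 1 library left out, the highest without DMSO R1. The count over the pathway lists was 2, and it was 18 with DESeq2. It was 1, SPINT2, with DESeq2's size factors and with limma voom. With library size only it was also 1, but that gene was lower with progesterone and was not 1 of the 2. It was 0 without DMSO R7 and R9. With 1 library left out it was 0 to 16 (16 without DMSO R1, 8 without DMSO R3, 0 without any other). SPINT2 kept its call in 7 and ANXA4 in 4 of the 15. With library size only, the split of the genes called was 182 higher and 155 lower, beside 229 and 130. The cause of these shifts was not tested. PLAUR, at 276 to 678 counts per library, had the least depth of the 6.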
